A study of Mus musculus with 18 samples.

Results

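The libraries described here are the 3 high polysome and the 3 low polysome libraries of wild type (WT) mouse embryonic stem cells (ESCs), 6 of the 18 libraries of a polysome profiling experiment, and they were compared with each other across all genes. They were chosen by genotype and fraction alone. The WT cells were of the V6.5 line and were grown in Knockout DMEM with fetal bovine serum, LIF and the inhibitors PD0325901 and CHIR99021, which keep ESCs in the naive state. Before lysis, the cells received 100 ug/ml cycloheximide for 2 minutes, a drug that stops elongation and so holds ribosomes on their messages. Each lysate was spread over a sucrose gradient from 10 to 50% and cut into monosomes, low polysomes of 2 to 4 ribosomes and high polysomes of 4 or more ribosomes, so messages with 4 ribosomes could enter either polysome fraction. RNA was read with QuantSeq, which sequences the 3′ ends of polyadenylated transcripts. The other 12 libraries are the 3 WT monosome libraries and the same fractions of Dgcr8 knockout (KO) ESCs, in 6 groups of 3 in all. They enter the gene filter and the fit. Otherwise they are used below only for side by side values and for tests of the difference between the genotypes. By the titles and the protocol, the high and low polysome libraries with the same replicate number came from the same gradient. No label says how far the 3 gradients of a genotype were independent cultures, so p-values measure only the spread between these samples.

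In a sucrose gradient, a message sediments with the ribosomes it carries. How many it carries depends on how often ribosomes start on it, how fast they move, and how much coding sequence there is to hold them. A short open reading frame is full with only a few ribosomes, and a long frame that starts rarely can carry as few. A message translated by few ribosomes at once is therefore expected in low polysomes, and a message translated by many in high polysomes. Presence in a fraction does not by itself show that a transcript is translated. The comparison asks which messages stop at 2 to 4 ribosomes and which carry more.

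Depth ranged from 2495249 to 3063940 counts in WT high polysomes and from 2847570 to 3521636 in WT low polysomes. Spearman's rho between libraries was 0.984 to 0.986 within a fraction and 0.922 to 0.925 between the fractions. The 10 ESC marker genes fixed for this check were all among the genes tested and summed to 5659 to 6211 CPM (counts scaled to the library total) in high and 4082 to 4140.0 CPM in low polysomes. The 8 primitive endoderm markers summed to 23.2 to 41.9 CPM in high and 26.7 to 28.8 CPM in low polysomes, with Gata6, Foxa2 and Sox7 at 3 counts or fewer in each of the 6 libraries. The 8 fibroblast markers, which would mark feeder cells, summed to 9.14 to 16.5 and 9.48 to 14.1 CPM, with Dcn and Postn at 0 and Col3a1 and Col1a2 at 3 counts or fewer in each of the 6. Fewer cells of a type and less RNA per cell cannot be told apart in such sums. Of the tested members, Lama1 and Dab2 (primitive endoderm) and Col1a1 and Thy1 (fibroblast) had overlapping values in the 2 fractions and did not pass the test, with log2 ratios of -0.062, 0.48, -0.39 and -0.37. None of the 3 and 2 members tested in these lists was called, at median log2 ratios of 0.48 and -0.38, whereas in the ESC list 2 of 10 were called higher and none lower, at a median of 0.57.

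Levels are CPM after TMM scaling, and the ratio of a gene is its level in high polysomes divided by that in low polysomes, on the log2 scale, from limma. Because each library is scaled to its own total, a ratio compares shares of the RNA of each fraction and not numbers of molecules. The call required an absolute log2 ratio above 1 together with an adjusted p below 0.05. Of 12851 genes tested, 2993 (23.3%) were called. In high polysomes, 1000 genes (7.78%) were higher and 1993 (15.5%) were lower. The ratios were skewed toward low polysomes: the 1st and the 99th percentile were -2.65 and 1.60, the quartiles -0.68 and 0.53, and the median was -0.0096. The 3 high values did not overlap the 3 low values for 984 of the 1000 genes called higher and for 1935 of the 1993 called lower. Over all 12851 genes tested, the 3 high values were all above the low values for 3732 and all below them for 3885. A call selects genes whose fractions lie apart, so these counts are not separate evidence. Without the fold threshold, 3335 genes were higher and 3517 lower. In 221 of the called genes, the 3 libraries of 1 fraction all held 3 counts or fewer, so that their fitted ratio is not a measured size.

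**Figure D1:**
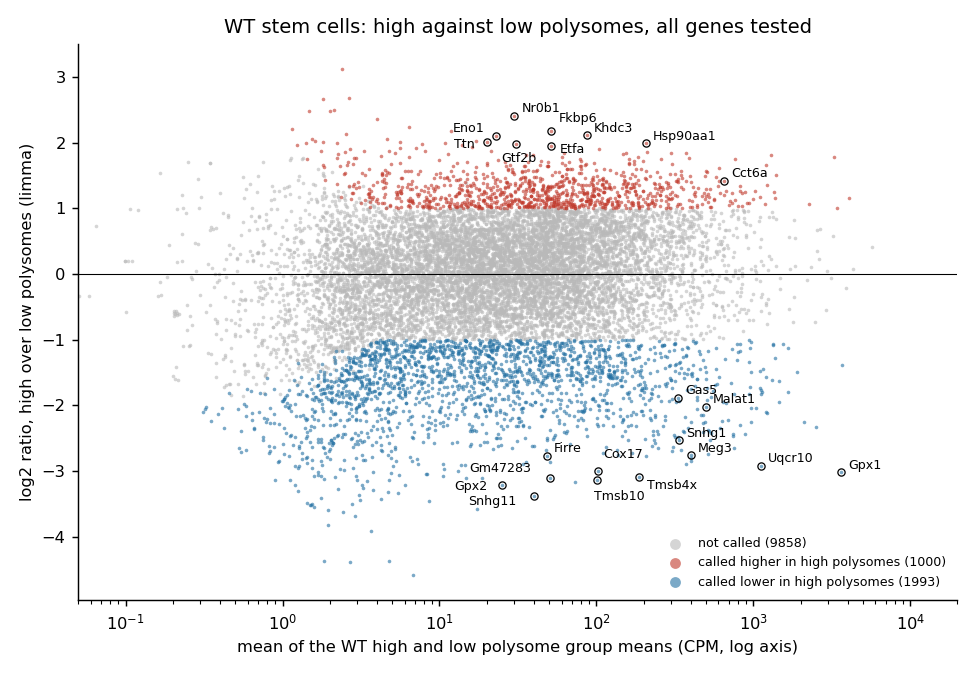
Log2 ratio of high over low polysomes from limma (vertical axis) against the mean of the 2 group means in CPM (horizontal axis, log scale) for the 12851 genes tested in WT ESCs, apart from a few genes whose mean lies left of the axis. Red points are the 1000 genes called higher in high polysomes, blue points the 1993 called lower, and rings mark named genes. Blue points reach below -3 from low levels up to Gpx1, whereas above 5 CPM no red point is beyond 2.40.

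The monosome libraries were set beside the genes called in either direction. For 1054 of the 1993 (52.9%) lower in high polysomes, the mean CPM among the 3 fractions was highest in low polysomes. For the other 939 (47.1%), it was highest in monosomes. As CPM are shares of each library, this order is not one of molecules per fraction. Among the 1000 genes higher in high polysomes, 957 (95.7%) had their highest mean in high polysomes and 43 in monosomes. Rps4x, described below, is one of the 43.

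Among protein-coding genes with a mean of 50 or more counts over the 6 libraries, the 8 with the largest fall from low to high polysomes had very short coding sequences (CDS) or encoded selenoproteins, with 1 gene outside both. Tmsb10 and Tmsb4x encode the beta-thymosins, small peptides that bind actin monomers. Tmsb10 stood at 25.4, 17.7 and 19.1 CPM in the 3 high polysome libraries and at 192, 175 and 179 CPM in the 3 low polysome libraries (log2 ratio -3.14, SE 0.15, limma adjusted p = 1.64e-22), an 8.82-fold difference. Tmsb4x stood at 43.3, 38.2 and 34.7 CPM in high and 378, 397 and 236 CPM in low polysomes (log2 ratio -3.09, SE 0.14, limma adjusted p = 7.30e-24). Every low polysome library was several times above every high polysome library for both. Their monosome levels of 199 ± 11.7 and 355 ± 26.1 CPM (SD, n = 3) were near those in low polysomes. Cox17, the copper chaperone of cytochrome c oxidase with 63 codons, had 18.3, 21.98 and 27.1 CPM in high and 190.4, 195 and 162 CPM in low polysomes (log2 ratio -3.001, SE 0.15, limma adjusted p = 9.11e-22). Uqcr10, a subunit of respiratory complex III with 64 codons, had 268, 248 and 268 CPM in high and 1949.8, 2116 and 1883 CPM in low polysomes (log2 ratio -2.92, SE 0.097, limma adjusted p = 6.79e-28). In both, the fractions were far apart, with little spread between gradients.

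The reading frames of the shortest of these messages fit on a few lines, and they are shown because their length is what they share. They are the complete CDS, start and stop codon in capitals, of the GENCODE M21 transcripts on GRCm38 (mm10), each split by introns within the span given. Rpl41, the smallest ribosomal protein, is added from the ribosomal protein list (minus strand, chr10:128548387-128548960); Tmsb10 (minus strand) spans chr6:72957618-72958012 and Tmsb4x (minus strand) chrX:167207501-167208036.
Rpl41, 25 codons: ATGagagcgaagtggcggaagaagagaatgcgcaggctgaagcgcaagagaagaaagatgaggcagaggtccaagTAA
Tmsb10, 44 codons: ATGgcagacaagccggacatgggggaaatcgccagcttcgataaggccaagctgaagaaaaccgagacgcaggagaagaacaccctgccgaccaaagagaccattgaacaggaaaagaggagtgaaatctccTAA
Tmsb4x, 44 codons: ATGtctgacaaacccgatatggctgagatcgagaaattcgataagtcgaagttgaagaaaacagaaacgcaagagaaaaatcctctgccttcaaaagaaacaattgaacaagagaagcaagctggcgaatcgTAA
The 2 thymosin frames are the same length, 135 bases with the stop codon, and are identical at 95 of these positions (70.4%). Rpl41 had 95.6, 97.3 and 108 CPM in high and 674, 605 and 833 CPM in low polysomes (log2 ratio -2.80, SE 0.14, limma adjusted p = 2.11e-21), and its monosome level was higher still, 1817 ± 159 CPM.

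The remaining strongly low genes were Gpx2, Gpx1, Snhg11 and Gm47283. Gpx1 and Gpx2, glutathione peroxidases that contain selenocysteine, are described with the selenoproteins. Snhg11, a host gene of small nucleolar RNAs that the annotation lists as protein-coding with 87 codons, had 6.63, 6.85 and 7.01 CPM in high and 63.5, 87.9 and 66.8 CPM in low polysomes (log2 ratio -3.38, SE 0.22, limma adjusted p = 1.39e-17). Gm47283 had 11.3, 11.2 and 9.24 CPM in high and 79.7, 102 and 91.5 CPM in low polysomes (log2 ratio -3.10, SE 0.18, limma adjusted p = 2.30e-19). Both were higher again in monosomes, at 308 ± 63.9 and 206 ± 16.4 CPM.

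Toward high polysomes, the largest ratio among the protein-coding genes with a mean of 50 or more counts and fractions apart belonged to Nr0b1 (ENSMUSG00000025056, chrX:86191764-86195947, plus strand, GRCm38), an orphan nuclear receptor of the pluripotency network. It had 59.7, 49.0 and 43.3 CPM in the high and 7.76, 10.9 and 9.03 CPM in the low polysome libraries (log2 ratio 2.40, SE 0.22, limma adjusted p = 3.67e-13), a 5.29-fold difference. Khdc3, an RNA-binding protein of oocytes and ESCs, had 142, 128 and 152 CPM in high and 35.3, 32.1 and 30.1 CPM in low polysomes (log2 ratio 2.11, SE 0.14, limma adjusted p = 9.53e-18), and Fkbp6, an immunophilin of the germ line, 76.1, 73.5 and 105 CPM in high and 20.1, 18.97 and 16.9 CPM in low polysomes (log2 ratio 2.18, SE 0.17, limma adjusted p = 3.45e-15). In all 3, the high polysome values were far above the low polysome values, and the monosome mean lay between. Hsp90aa1, the inducible cytosolic HSP90 chaperone, had 293, 394 and 305 CPM in high and 75.5, 75.04 and 99.6 CPM in low polysomes (log2 ratio 1.99, SE 0.13, limma adjusted p = 2.71e-17). Gtf2b, the general transcription factor TFIIB, had 52.3, 45.8 and 49.0 CPM in high and 10.9, 12 and 13.8 CPM in low polysomes (log2 ratio 1.98, SE 0.22, limma adjusted p = 1.72e-10). Etfa, a mitochondrial electron carrier, had 95.6, 71.7 and 77.7 CPM in high and 21.9, 27.1 and 14.8 CPM in low polysomes (log2 ratio 1.95, SE 0.18, limma adjusted p = 6.58e-13). The rule that named these genes required fractions that do not overlap. The other 2 carry a limit: Eno1, the glycolytic enolase, has many processed copies in the genome and reads that align to several places were dropped, so its 43.7, 37.1 and 31.2 CPM in high and 8.11, 8.09 and 9.33 CPM in low polysomes (log2 ratio 2.10, SE 0.24, limma adjusted p = 2.79e-10) rest on part of its reads. For Ttn, the muscle protein titin, 42.1, 33.9 and 21.02 CPM in high and 5.64, 8.37 and 9.03 CPM in low polysomes (log2 ratio 2.00, SE 0.26, limma adjusted p = 5.09e-09) were counted, and whether these 3′ reads come from the full titin message was not tested.

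To ask how far coding length orders the messages, protein-coding genes were placed in classes by the codons of their CDS. The relation rose and then fell. Among the 252 genes of up to 100 codons, 203 (80.6%) were lower in high polysomes and none was higher, at a median log2 ratio of -1.81. The median was -0.96 at 101 to 150 codons (592 genes, 268 lower and 2 higher) and -0.41 at 151 to 200 (756 genes, 190 lower and 23 higher). It passed 0 at 201 to 300 codons, with a median of 0.064 and 195 higher against 239 lower of 1646. The medians were highest between 301 and 500 codons, at 0.28 for 301 to 400 (271 higher and 150 lower of 1799) and 0.27 for 401 to 500 (205 and 102 of 1513). Beyond that the medians declined, to 0.23 at 501 to 700 codons, 0.18 at 701 to 1000 and -0.010 at 1001 to 1500. They reached -0.21 at 1501 to 2000 codons and -0.30 above 2000. Above 2000 codons, 4 of 288 genes were higher (1.39%) and 26 lower (9.03%). Both shares were below those over all genes tested, 7.78 and 15.5%. Within each gradient the shortest class had a median of -1.76, -1.70 and -1.77. The longest class varied more between gradients, with -0.36, -0.15 and -0.45, but was below 0 in all 3.

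Across all 11763 protein-coding genes with a CDS, Spearman's rho of codons and ratio was 0.143 (0.134, 0.163 and 0.114 in gradients 1, 2 and 3), and it had opposite signs among short and long frames. Up to 300 codons it was 0.486 (3246 genes) and above 300 codons -0.171 (8517 genes). These are correlations across genes of the same 6 libraries, which are not independent replicates. In the shortest class the low polysome to monosome ratio had a median of 0.26 and the high polysome to monosome ratio one of -1.59. In the longest class the same medians were 0.86 and 0.54. Of the 977 protein-coding genes called higher in high polysomes, 854 (87.4%) had 201 to 700 codons, against 59.8% of all protein-coding genes, and 25 had up to 200 codons. Of the 1464 called lower, 661 (45.2%) had up to 200 codons, against 13.6% of all.

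**Figure D2:**
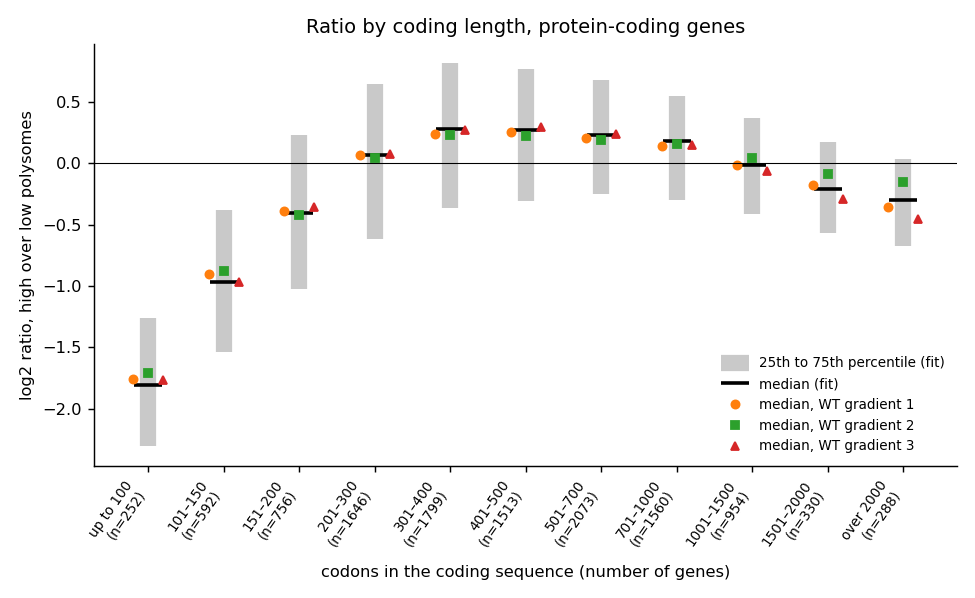
Log2 ratio of high over low polysomes (vertical axis) for protein-coding genes in 11 classes of coding length in codons (horizontal axis, with the number of genes). Black bars are medians and grey bars the 25th to 75th percentile from limma, and coloured symbols the class medians in each of the 3 WT gradients. The medians climb from -1.81 to 0.28 at 301 to 400 codons and then decline to -0.30, and the gradients lie close together except in the longest classes.

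Length did not order every message, and genes at odds with their class were named by rule. Among those of 500 codons or more, the 5 with the largest ratios toward low polysomes were Map3k10 and Mapk8ip3, a kinase and a scaffold of JNK signalling, Tagap1, a GTPase-activating protein, Ttll6, a tubulin ligase, and Nos1, the neuronal nitric oxide synthase. Mapk8ip3, with 1337 codons, had 10.1, 12.6 and 10.5 CPM in high and 52.2, 49.4 and 57.2 CPM in low polysomes (log2 ratio -2.25, SE 0.22, limma adjusted p = 2.57e-12) and 17.5 ± 9.78 CPM in monosomes. Nos1, with 1429 codons, had 6.63, 8.65 and 11.8 CPM in high and 41.3, 32.9 and 44.3 CPM in low polysomes (log2 ratio -2.10, SE 0.22, limma adjusted p = 1.75e-11). Map3k10 had 5.07, 3.60 and 6.05 CPM in high and 34.2, 26.8 and 20.5 CPM in low polysomes (log2 ratio -2.39, SE 0.29, limma adjusted p = 1.14e-09). All 3 had high polysome values far under their low polysome values. Ttll6 and Tagap1 had log2 ratios of -2.21 and -2.36 and, unlike Mapk8ip3, were highest in monosomes, at 106 ± 17.6 and 87.1 ± 21.9 CPM. Reads at 3′ ends do not show which isoform, or whether the whole CDS, was present in these messages.

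The 5 genes of up to 200 codons with the largest ratios toward high polysomes were Cnbp, Vbp1, Bex4, Gins1 and Srsf3. Cnbp, a zinc finger protein that binds single-stranded nucleic acid, has 178 codons and had 491, 479.7 and 487 CPM in high and 190.4, 167 and 178 CPM in low polysomes (log2 ratio 1.45, SE 0.10, limma adjusted p = 2.90e-16). Srsf3, a splicing factor of 164 codons, had 629, 703 and 647 CPM in high and 279, 278 and 310.4 CPM in low polysomes (log2 ratio 1.19, SE 0.10, limma adjusted p = 4.16e-14). Vbp1, a subunit of the prefoldin chaperone with 196 codons, had 147, 172 and 170.1 CPM in high and 59.6, 69.7 and 67.4 CPM in low polysomes (log2 ratio 1.31, SE 0.13, limma adjusted p = 7.27e-12). The high polysome libraries were above the low polysome libraries by more than 2-fold in each of the 3. Gins1, of the replication helicase, and Bex4 had log2 ratios of 1.19 (SE 0.16) and 1.22 (SE 0.20).

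**Figure D3:**
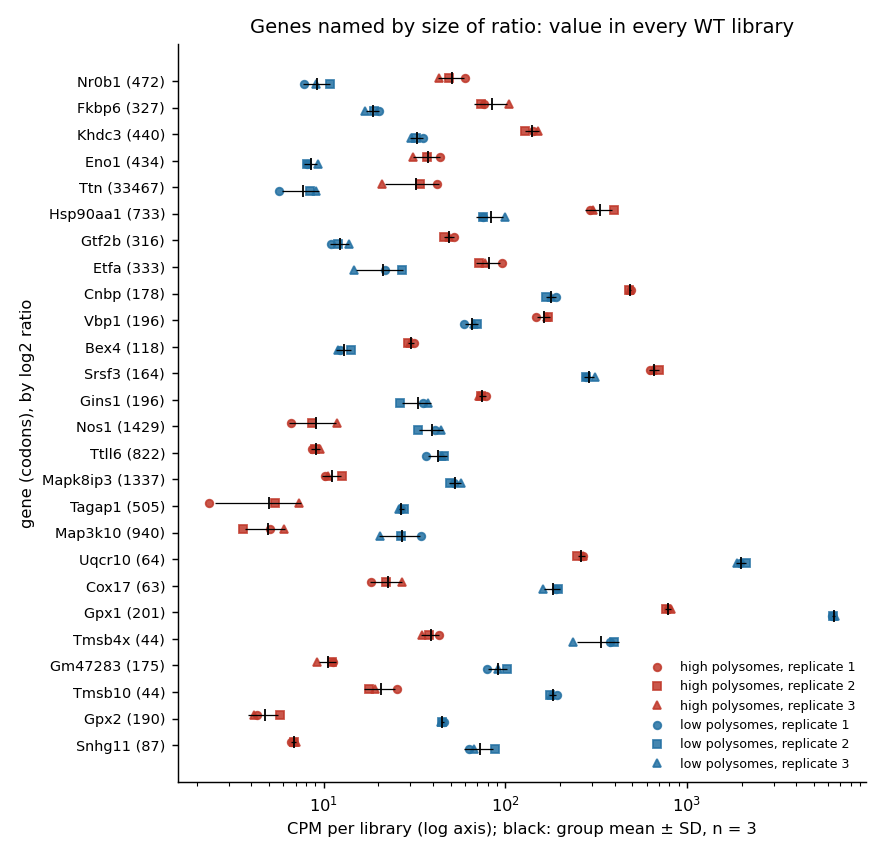
CPM in every WT high (red) and low (blue) polysome library (horizontal axis, log scale) for the 26 genes named by the size of their ratio, ordered from the most positive to the most negative ratio, with the codons of the CDS in parentheses. Symbols mark the 3 gradients and black bars the group mean and SD (n = 3). Gpx1 stands out by its level, 6286 to 6544 CPM in low polysomes.

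Selenoproteins had the lowest median of the lists of nuclear protein-coding genes. They contain selenocysteine, which is inserted at an in-frame UGA codon, otherwise a stop signal, with the help of a structure in the 3′ part of the message, and recoding is slow and competes with termination. Of 24 selenoprotein genes in the table, 21 were tested, 10 were lower in high polysomes, 1 was higher and 10 were not called. Their median log2 ratio was -1.27 (-0.93 with Selenop, which had 3 counts or fewer in each high polysome library, set to the bound that this floor allows), beside -0.0096 over all genes tested. The median varied between gradients, at -1.60, -1.13 and -0.78. Gpx1 (ENSMUSG00000063856, chr9:108339054-108340343, plus strand, GRCm38), an abundant message, had 789, 763 and 821 CPM in the high and 6286, 6407 and 6544 CPM in the low polysome libraries (log2 ratio -3.02, SE 0.093, limma adjusted p = 4.16e-29). Gpx2, at 4.29, 5.77 and 4.14 CPM in high and 45.8, 44.9 and 44.3 CPM in low polysomes (log2 ratio -3.21, SE 0.26, limma adjusted p = 2.36e-14), fell as far at a much lower level. The 3 values of each fraction were close together and the fractions far apart in both.

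The members were also split by the position of the UGA, a split made after their values were seen, and the 2 groups overlap. The UGA is shown here, in capitals, in its reading frame with up to 12 bases before and 15 after it within the CDS, for 4 genes with the UGA inside the frame and 3 with it at the end, where only the codons up to the true stop follow. Gpx2 is on the minus strand and the others on the plus strand, and the span of Selenok includes an intron. Sequences are from GENCODE M21 transcripts on GRCm38, written 5′ to 3′ on the coding strand.
Gpx1, codon 47 of 201, chr9:108339439-108339468: gtcgcgtctctcTGAggcaccacgatccgg
Gpx2, codon 40 of 190, chr12:76795241-76795270: gtggcgtcactcTGAggaacaactacccgg
Gpx4, codon 73 of 197, chr10:80054725-80054754: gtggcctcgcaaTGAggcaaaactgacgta
Selenof, codon 93 of 162, chr3:144590633-144590662: gaagtctgcggaTGAaaattggggaggttc
Txnrd1, codon 498 of 499, chr10:82896025-82896045: cagtctggctgcTGAggttaa
Selenos, codon 189 of 190, chr7:66088832-66088852: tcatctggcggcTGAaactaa
Selenok, codon 92 of 94, chr14:29973428-29974479: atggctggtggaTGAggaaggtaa
In 14 of the 21 genes, more than 10 codons (21 to 389) followed the first UGA. Of these, 10 were lower in high polysomes and none was higher, at a median of -1.71 and a range from -3.21 to 0.22. In the other 7, with 1 to 10 codons after it, none was lower and Txnrd1 was higher, at a median of 0.35 and a range from -0.29 to 1.51. This split was made after the values were seen and was not tested. It was not separate from coding length. Of the 14, the 10 called lower had 88 (Selenow) to 226 codons (Gpx3) and the 4 not called 304 (Dio3) to 557 (Selenon). Of the 7, Selenok and Selenos had 94 and 190 codons, and the others 398 (Selenoi) to 667 (Selenoo).

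Gpx3, Selenoh and Gpx4, which reduces lipid peroxides, were nearly as low as Gpx1, at -2.64, -2.63 and -2.58, followed by Selenom at -2.16, Selenof at -1.73, Msrb1 at -1.68, Selenot at -1.62 and Selenow at -1.51. The others with more than 10 codons after the UGA were not called, namely Selenop (-1.27, at the floor in high polysomes), Dio3 (-0.93), Sephs2 (-0.82) and Selenon (0.22). At the other end, Txnrd1, the cytosolic thioredoxin reductase whose selenocysteine is the last residue but 1, had 523, 509 and 387 CPM in high and 167, 159 and 166 CPM in low polysomes (log2 ratio 1.51, SE 0.11, limma adjusted p = 6.88e-16), without overlap. Selenos, with 190 codons about as short as Gpx1, had 324, 400.4 and 335 CPM in high and 479.5, 446 and 377 CPM in low polysomes (log2 ratio -0.29, SE 0.12, limma adjusted p = 0.0342), and these values overlapped. Selenok, with only 94 codons, had a ratio of -0.057 (SE 0.14), far above the median of -1.81 of genes of up to 100 codons. Relatives without an in-frame UGA were picked after the values were seen and were not tested against selenoproteins. Gpx7 was at -1.10 (SE 0.17, called lower), Gpx8 at -0.36 (SE 0.42), Msrb2 at -0.78 (SE 0.20), Msrb3 at 0.003 (SE 0.38) and Sephs1 at 0.77 (SE 0.15). Among selenoproteins of these families, the peroxidases ranged from -3.21 (Gpx2) to -2.58 (Gpx4), with Msrb1 at -1.68 and Sephs2 at -0.82.

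**Figure D4:**
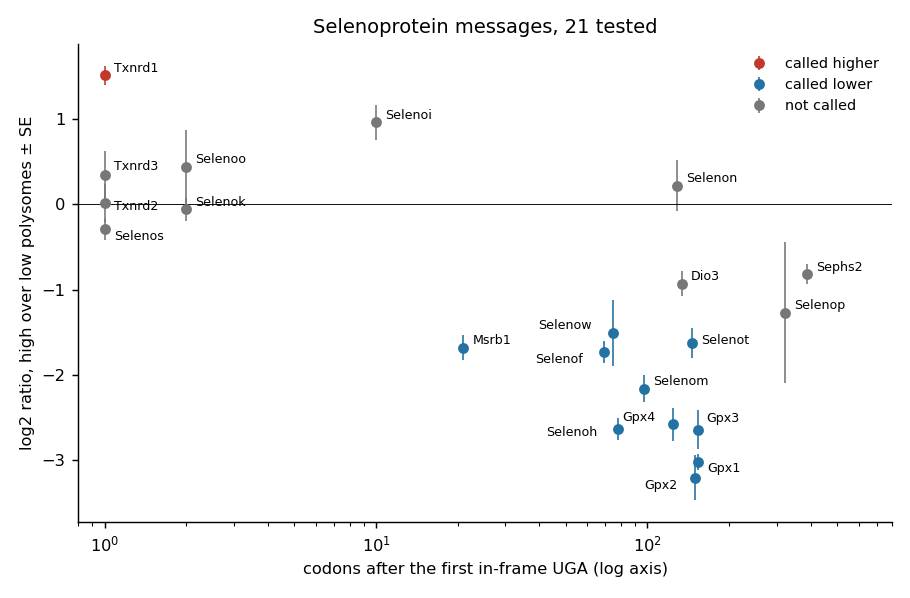
Log2 ratio of high over low polysomes with its SE from limma (vertical axis) for the 21 selenoprotein genes tested, against the number of codons after the first in-frame UGA (horizontal axis, log scale). Genes with at most 10 codons after the UGA lie between -0.29 and 1.51, whereas those with more lie between -3.21 and 0.22, with 10 of 14 called lower (blue).

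Start codons in the 5′ leader can divert scanning ribosomes from the main frame. A list of genes under such control, or under control at the start codon, was examined next. Of 13 tested, 6 were lower in high polysomes and none was higher, at a median of -0.59. The 6 were Ddit3 (-2.32), Ppp1r15a (-1.76), Slc35a4 (-1.49), Eif1 (-1.45), Atf5 (-1.26) and Ifrd1 (-1.08), of which Ddit3, Atf5 and Ppp1r15a belong to the integrated stress response. Ddit3, the stress transcription factor CHOP, had 12.5, 7.93 and 11.1 CPM in high and 40.9, 48.0 and 65.3 CPM in low polysomes (log2 ratio -2.32, SE 0.22, limma adjusted p = 8.76e-13). Atf4, the main effector of that response, had 1042, 971 and 1006 CPM in high and 1658, 1476 and 1427 CPM in low polysomes (log2 ratio -0.59, SE 0.097, limma adjusted p = 1.09e-06), separate fractions but a ratio short of the threshold. Ppp1r15b had 507, 431 and 445 CPM in high and 559.9, 478 and 471 CPM in low polysomes, which overlapped (log2 ratio -0.12, SE 0.10, limma adjusted p = 0.309). Eif1 and Ddit3 also have short frames, of 113 and 168 codons, so length and such control cannot be told apart for them.

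Start codons in the leader were also counted across all genes, within 301 to 700 codons to hold length. Among the 2626 such genes with no ATG in the annotated 5′ leader, 443 were higher (16.9%) and 105 lower (4.00%), at a median of 0.41. With 1 ATG, 108 were higher and 109 lower of 1224, at a median of 0.18. The median was 0.11 with 2, 0.023 with 3 to 5, and -0.11 with 6 or more. With 6 or more, 9 of 260 were higher (3.46%, beside 7.78% over all genes tested) and 24 lower (9.23%, beside 15.5%). The share lower was much the same with 1 ATG (8.91%), 2 (9.37%) and 3 to 5 (9.2%). The order of the medians held in each gradient for the classes with no ATG (0.41, 0.38 and 0.43) and with 6 or more (-0.12, -0.12 and -0.064). Spearman's rho across the 5328 genes was -0.214 for the number of ATG and -0.108 for the length of the leader, and leaders with more ATG were also longer, with medians from 113 to 617 bases. The 3′ UTR length (rho 0.041), the GC content of the CDS (-0.113) and the mean level (0.101) were only weakly related to the ratio across protein-coding genes.

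The polyamine genes hold another recoding signal. Antizymes, which inhibit polyamine synthesis and uptake, are made only when ribosomes shift frame within the message. Oaz1 had 15.6, 16.6 and 16.6 CPM in high and 67.7, 80.1 and 72.5 CPM in low polysomes (log2 ratio -2.16, SE 0.17, limma adjusted p = 6.23e-15), and Oaz2 80.3, 62.0 and 68.2 CPM in high and 257, 235 and 249 CPM in low polysomes (log2 ratio -1.82, SE 0.12, limma adjusted p = 3.75e-17). Both were several times higher in low polysomes in each gradient. Amd1, which makes decarboxylated S-adenosylmethionine and has a leader peptide, was also lower (-1.38, SE 0.38), whereas Sms, the spermine synthase, was higher at 32.4, 29.6 and 33.4 against 11.3, 18.1 and 16.6 CPM (log2 ratio 1.02, SE 0.22, limma adjusted p = 0.000103), a call lost without gradient 1 (log2 ratio 0.86). Srm, the spermidine synthase, had 278, 247 and 196 CPM in high and 174, 158 and 156 CPM in low polysomes (log2 ratio 0.55, SE 0.12, limma adjusted p = 0.000151). Of the 10 tested, 3 were thus lower and 1 was higher, at a median of -0.42.

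Large complexes built from many small proteins sorted by the length of each subunit. Of 77 nuclear-encoded respiratory chain subunits, 35 were lower (45.5%, beside 15.5% over all genes tested) and 9 higher (11.7%, beside 7.78%). The list median was -0.81. Of the 20 with up to 100 codons, 19 were lower (median -2.33). Of the 36 with 101 to 200 codons, 15 were lower (median -0.79), and of the 21 with more, 9 were higher and 1 lower (median 0.86). Cox6c, a subunit of cytochrome c oxidase with 76 codons, had 757, 767 and 675 CPM in high and 3585, 3448 and 3450.2 CPM in low polysomes (log2 ratio -2.25, SE 0.091, limma adjusted p = 5.44e-25). Atp5a1, the alpha subunit of ATP synthase with 553 codons, had 1242, 1122 and 1153 CPM in high and 355, 339.8 and 352 CPM in low polysomes (log2 ratio 1.75, SE 0.097, limma adjusted p = 2.85e-20). Proteins of the same organelle and pathway were thus at opposite ends. Atp5g3, the membrane ring subunit with 141 codons, had 2749, 2841 and 2831 CPM in high and 2349.6, 2635 and 2219.8 CPM in low polysomes (log2 ratio 0.23, SE 0.092, limma adjusted p = 0.0325), without overlap and well above its length class.

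Mitochondrial ribosomal proteins followed the same order. Of 77 tested, 14 were lower (18.2%, beside 15.5% over all genes tested) and 9 higher (11.7%, beside 7.78%), at a median of -0.13 (-0.035 without gradient 2), and the median was -1.83 for the 3 of up to 100 codons, -0.60 for the 37 of 101 to 200 and 0.71 for the 37 with more. Mrpl33, with 65 codons, had 75.7, 68.8 and 65.6 CPM in high and 451, 399 and 312 CPM in low polysomes (log2 ratio -2.45, SE 0.11, limma adjusted p = 3.48e-23). Mrpl16, with 251 codons, had 94.0, 100.2 and 104 CPM in high and 42.7, 36.0 and 40.3 CPM in low polysomes (log2 ratio 1.33, SE 0.15, limma adjusted p = 1.77e-10). These 2 genes lay on either side without overlap, while the abundant Mrpl17 and Mrpl15 had ratios of -0.59 (SE 0.10) and 0.57 (SE 0.11).

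The cytosolic ribosomal proteins are encoded by 5′ TOP messages, whose translation follows growth signals. Of 77 tested, 21 were lower (27.3%, beside 15.5% over all genes tested) and 1 higher (1.3%, beside 7.78%). The list median was -0.31 (-0.17, -0.32 and -0.68 by gradient). All 9 with up to 100 codons were lower (median -2.10), 12 of the 48 with 101 to 200 (median -0.39) and none of the 20 with more (median -0.052). Rps14 had 2054, 1854 and 2172 CPM in high and 5121, 5406 and 5311 CPM in low polysomes (log2 ratio -1.38, SE 0.087, limma adjusted p = 2.30e-18). Rps3, with 243 codons, had 3129, 3026 and 2970.1 CPM in high and 3236, 2914 and 3434 CPM in low polysomes, which overlapped (log2 ratio -0.068, SE 0.095, limma adjusted p = 0.574). Both were far higher in monosomes, at 8948 ± 319 and 12964 ± 261 CPM. The median low polysome to monosome ratio of the list was -1.63, and the high polysome to monosome ratio had a median of -2.07. Rps4x, the 1 called higher, had 30.03, 24.1 and 20.1 CPM in high, 7.404, 6.97 and 11.7 CPM in low polysomes (log2 ratio 1.47, SE 0.23, limma adjusted p = 6.11e-07) and 83.1 ± 4.75 CPM in monosomes. Ribosomal protein genes have many processed copies, so their counts are uncertain. Of 15 translation factors and other TOP messages, 1 was higher (6.67%, beside 7.78% over all genes tested) and 2 were lower (13.3%, beside 15.5%). Their median of 0.068 turned to -0.056 without gradient 2. Eef2, the elongation factor of translocation, and Pabpc1, the poly(A) binding protein, were lower at -1.06 (SE 0.10) and -1.07 (SE 0.094; -0.99 and no longer called without gradient 2), and Eef1d was higher at 1.16 (SE 0.12).

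Messages of the mitochondrial genome are read by the organelle's own ribosomes. They took 0.298 to 0.325% of counts in low and 0.109 to 0.125% in high polysomes, and 1.77 to 1.99% in monosomes. Of the 7 of 13 that passed the filter, 6 were lower and none higher, at a median of -1.43. mt-Co1 had 193, 268 and 240.1 CPM in high and 807, 614 and 925 CPM in low polysomes (log2 ratio -1.74, SE 0.15, limma adjusted p = 8.81e-14), and mt-Cytb 232, 196 and 221 CPM in high and 629.7, 702 and 642 CPM in low polysomes (log2 ratio -1.61, SE 0.10, limma adjusted p = 2.37e-18). Neither overlapped.

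In contrast, subunits of the proteasome, which degrades proteins, were mostly higher in high polysomes. Of the 31 proteasome subunits tested, 20 were higher and none lower, at a median of 1.19, with 1.11, 1.07 and 1.21 by gradient. The calls were spread over the particle, with 8 of the 14 subunits of the 20S core, 5 of the 6 ATPases and 7 of the 11 other subunits of the 19S cap. Psmc4, an ATPase of the cap, had 132, 129 and 109 CPM in high and 39.5, 37.4 and 35.2 CPM in low polysomes (log2 ratio 1.71, SE 0.14, limma adjusted p = 2.45e-14), without overlap. The 2 most abundant subunits were among the 11 not called. Psma7 had 1112, 1089.9 and 987 CPM in high and 969, 1056 and 917 CPM in low polysomes (log2 ratio 0.12, SE 0.097, limma adjusted p = 0.326) and Psmd8 886, 803 and 939 CPM in high and 883, 914 and 690.0 CPM in low polysomes (log2 ratio 0.087, SE 0.10, limma adjusted p = 0.489). Their fractions overlapped. Subunits of the TRiC chaperonin, which folds actin and tubulin, had a median of 0.90, with all 7 above 0 at an adjusted p under 0.05 but only Cct5 past the fold threshold (375, 343 and 362 against 129.8, 143 and 145 CPM; log2 ratio 1.37, SE 0.11, limma adjusted p = 1.21e-14). Cct7 and Cct8 followed at 0.95 (SE 0.096) and 0.96 (SE 0.11). The subunit Cct6a, which the annotation used here lists as noncoding, had 897, 989.7 and 968 CPM in high and 342, 357 and 370.0 CPM in low polysomes (log2 ratio 1.42, SE 0.099, limma adjusted p = 9.39e-17).

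Enzymes that charge tRNAs had a median of 0.80, with 6 of 20 higher and none lower. Hars, which charges histidine tRNA, had 100.2, 95.5 and 98.4 CPM in high and 23.3, 29.9 and 28.3 CPM in low polysomes (log2 ratio 1.84, SE 0.15, limma adjusted p = 1.60e-14), and Nars 516, 522 and 617 CPM in high and 226, 227 and 319.7 CPM in low polysomes (log2 ratio 1.11, SE 0.11, limma adjusted p = 4.68e-12). The fractions were separate in both, and Farsa had a ratio of 0.90 (SE 0.12), past 1 without gradient 2 (1.09). Among glycolytic enzymes, 5 of 15 were higher, namely Eno1, Tpi1, Pgk1, Aldoc and Ldha at 2.10, 1.60, 1.54 (under 5 CPM in each library, SE 0.65), 1.26 and 1.08, and the platelet-type phosphofructokinase Pfkp was lower at 97.1, 88.7 and 104 against 177, 197 and 212 CPM (log2 ratio -1.01, SE 0.13, limma adjusted p = 7.20e-09; -0.94 without gradient 2). The median was 0.86, and the abundant Aldoa and Pkm had ratios of 0.76 and 0.89. Of 32 splicing regulators, 11 were higher and none lower (median 0.71), with 4 of 12 SR and TRA2 proteins and 7 of 20 hnRNPs. Hnrnpab had 2136, 2036 and 1917 CPM in high and 603, 559 and 567 CPM in low polysomes (log2 ratio 1.82, SE 0.094, limma adjusted p = 2.60e-21), and Hnrnpa0 1148, 1119.8 and 1236 CPM in high and 508, 474 and 472 CPM in low polysomes (log2 ratio 1.27, SE 0.099, limma adjusted p = 4.26e-15). In both, the fractions were well apart.

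**Figure D5:**
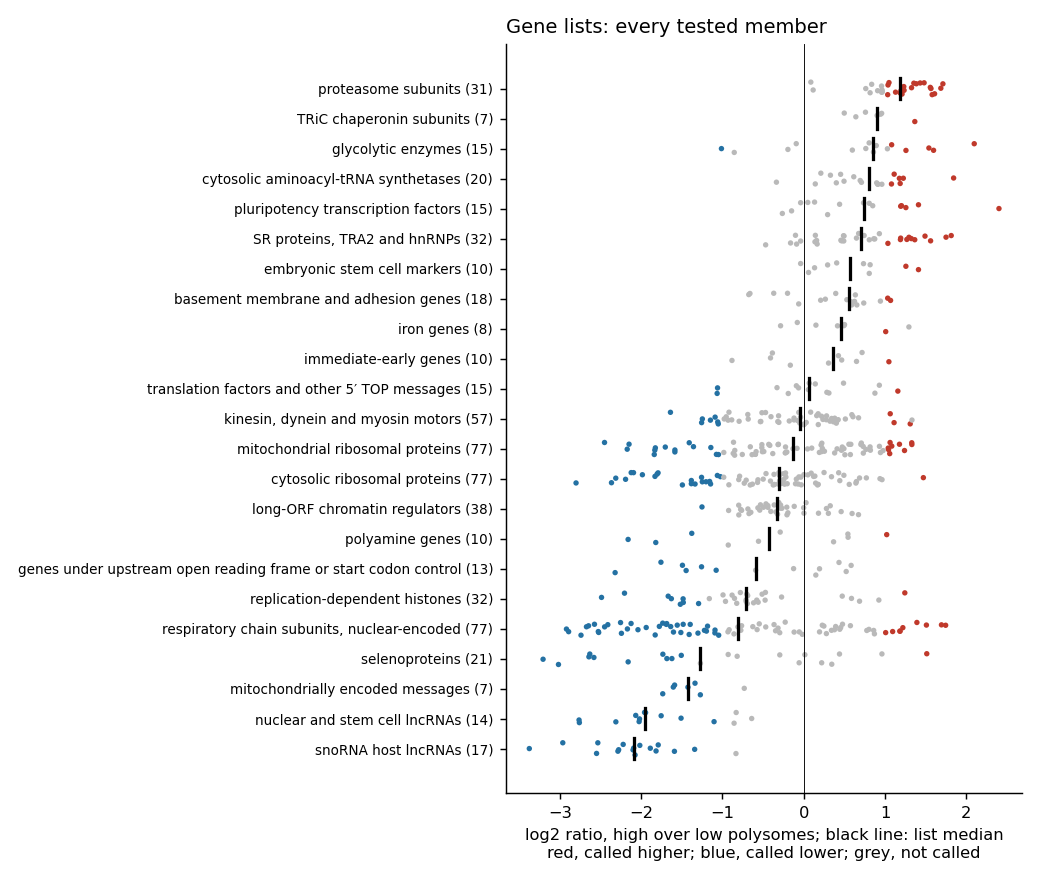
Log2 ratio of high over low polysomes from limma (horizontal axis) for each tested member of the lists with at least 5 tested members, apart from the Zfp genes, with the number tested in parentheses. Points are genes, red if called higher, blue if called lower and grey if not called, with vertical jitter without meaning, and black lines are list medians. The order runs from proteasome subunits at 1.19 to host lncRNAs of small nucleolar RNAs at -2.09.

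Transcription factors of the pluripotent state were in high polysomes or near 0. Of 15 tested, 5 were higher and none lower (median 0.74), namely Nr0b1 (2.40), Nanog (1.41), Tfcp2l1 (1.26), Sall4 (1.203) and Klf2 (1.19). Nanog had 522, 416 and 459 CPM in high and 176, 165 and 182 CPM in low polysomes (log2 ratio 1.41, SE 0.11, limma adjusted p = 7.13e-15), and Tfcp2l1 928, 981 and 908 CPM in high and 365, 395 and 419 CPM in low polysomes (log2 ratio 1.26, SE 0.10, limma adjusted p = 6.57e-15). Both sets were well separated. Pou5f1 and Sox2, the core factors, had ratios of 0.13 (SE 0.16) and 0.74 (SE 0.099). Klf4 had 705, 819.5 and 977 CPM in high and 845, 969 and 749.6 CPM in low polysomes, with overlap (log2 ratio -0.038, SE 0.11, limma adjusted p = 0.791). Dppa5a, an ESC marker of only 118 codons, had 1639, 1131 and 1054 CPM in high and 995, 904 and 934 CPM in low polysomes (log2 ratio 0.41, SE 0.15, limma adjusted p = 0.0214), above the median of its length class. Dgcr8, the microRNA processing factor, was lower, at 26.1, 27.4 and 29.6 CPM in high and 51.8, 70.0 and 66.5 CPM in low polysomes (log2 ratio -1.17, SE 0.17, limma adjusted p = 9.91e-08), with 773 codons and 5 ATG in its annotated leader. Ddx6, a helicase of translational repression, had 222, 242 and 239 CPM in high and 187, 194 and 203 CPM in low polysomes (log2 ratio 0.27, SE 0.11, limma adjusted p = 0.0308), without overlap but short of the fold threshold.

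Histone messages divided by class, and the classes also differ in coding length. Among 32 replication-dependent histone genes, 8 were lower and 1 was higher, at a median of -0.71. The 27 core histones held all 8 (4 of 10 H2A and 4 of 6 H4) at a median of -0.82, whereas the 5 linker histones had a median of 0.69. Their median lengths were 126 and 219 codons. Set against the medians of their length classes, core histones stood at a median of 0.14 and linker histones at 0.62. The pooled core histones were thus not low for their length, but the 4 kinds of core histone differed. On the same measure, the 6 H4 genes were low, at a median of -0.42, and the 10 H2A genes were at -0.013. The 9 H2B and 2 H3 genes were at 0.27 and 0.57. Hist1h1b had 575, 673 and 515 CPM in high and 227, 176 and 367 CPM in low polysomes (log2 ratio 1.24, SE 0.15, limma adjusted p = 1.75e-09), a call lost without gradient 2 (log2 ratio 0.91). Hist1h1c had 235, 258 and 173 CPM in high and 131, 117 and 199.9 CPM in low polysomes, with overlap (log2 ratio 0.59, SE 0.15, limma adjusted p = 0.000974). Hist1h4c, with 1.56, 3.24 and 2.55 CPM in high and 9.52, 13.4 and 20.8 CPM in low polysomes, was close to the floor in high polysomes (log2 ratio -2.49, SE 0.40, limma adjusted p = 7.26e-07). The list median differed between gradients, at -0.51, -0.24 and -1.13, and that of the linker histones was 0.86, 1.37 and -0.15. Most of these messages end without a poly(A) tail, so 3′ sequencing reads only the tailed part of them, and near-identical copies make the counts of single histone genes uncertain.

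Lists of long proteins had medians from -0.33 to 0.56. The length classes were at -0.010 for 1001 to 1500 codons, -0.21 for 1501 to 2000 and -0.30 above 2000. Chromatin regulators of very long CDS, with a median of 2183.5 codons, had a median of -0.33. Of 38, 1 was lower (2.63%, beside 15.5% over all genes tested) and none higher. The 1 was Chd5 (-1.25, SE 0.27). Chd4, the helicase of the NuRD complex, had 817, 695 and 563 CPM in high and 539, 485 and 471 CPM in low polysomes (log2 ratio 0.46, SE 0.10, limma adjusted p = 0.000225) and Baz2a 301, 297 and 296 CPM in high and 297, 283 and 312 CPM in low polysomes (log2 ratio 0.0027, SE 0.10, limma adjusted p = 0.984). Kinesin, dynein and myosin motors had a median of -0.049, with 3 of 57 higher (5.26%, beside 7.78% over all genes tested) and 7 lower (12.3%, beside 15.5%). Kif5a, a neuronal kinesin, fell to 11.7, 9.37 and 6.69 from 27.9, 27.9 and 30.1 CPM (log2 ratio -1.64, SE 0.22, limma adjusted p = 1.21e-08), and Myh13 rose (1.31, SE 0.23), while the abundant Myh9 and Myo10 had ratios of -0.47 and -0.40. The motor median turned to 0.071 without gradient 3. Basement membrane and adhesion genes, translated at the endoplasmic reticulum, had a median of 0.56 in spite of a median of 1638 codons. Of 18, 2 were higher (11.1%, beside 7.78% over all genes tested), Sparc and Col4a1. Sparc had 3299, 2895 and 3005 CPM in high and 1745, 1399.6 and 1273 CPM in low polysomes (log2 ratio 1.07, SE 0.10, limma adjusted p = 1.43e-12; 0.98 without gradient 3) and Cdh1, E-cadherin, 4255, 3561 and 3771 CPM in high and 3147, 2704 and 2005 CPM in low polysomes (log2 ratio 0.58, SE 0.10, limma adjusted p = 5.42e-06).

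The remaining lists showed few calls. Of 277 zinc finger Zfp genes, 6 were higher and 20 lower (median -0.13), at shares of 2.17 and 7.22% that were below those over all genes. Zfp207 was higher (1.02, SE 0.10; 0.98 without gradient 3), and Zfp106 had a ratio of 0.40 (SE 0.10). The 2 with the largest ratios, Zfp27 and Zfp943, had under 4 CPM in each of the 6 libraries and lost their calls without gradient 3 (log2 ratios of 1.10 and -0.70). Of 10 immediate-early genes, 1 was higher (10.0%, beside 7.78% over all genes tested) and none was lower, at a median of 0.37. The 1 was Jun (1.05, SE 0.34), at 0.91 without gradient 1 and 0.95 without gradient 2 and not called in either. Ier2 and Jund had ratios of 0.72 and -0.88. Among the iron genes, Fth1, the ferritin heavy chain whose leader binds iron regulatory proteins, had 195, 165 and 223 CPM in high and 203, 160.4 and 257 CPM in low polysomes, which overlapped (log2 ratio -0.079, SE 0.11, limma adjusted p = 0.584).

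Transcripts without a CDS gave the other pole of the comparison. Of 494 long noncoding RNAs (lncRNAs), 305 (61.7%) were lower in high polysomes and 1, Cct6a, was higher. Their median log2 ratio was -1.56, against 0.053 for protein-coding genes, a difference of -1.62 (-0.29 when every gene with a count was kept). Since 148 of the lncRNAs had 3 counts or fewer in all libraries of a fraction, the median was also taken with these at the bound the floor allows, and was then -1.39. By gradient, on CPM with a prior count of 2, the difference was -1.31, -1.29 and -1.29. Meg3, an imprinted lncRNA, had 78.0, 106 and 126 CPM in high and 573, 778 and 740.0 CPM in low polysomes (log2 ratio -2.76, SE 0.11, limma adjusted p = 4.90e-25). Malat1, a nuclear lncRNA, had 174, 228 and 187 CPM in high and 765, 716 and 916 CPM in low polysomes (log2 ratio -2.02, SE 0.11, limma adjusted p = 2.57e-20). The libraries of the fractions were far apart, and the monosome levels of 2508 ± 209.7 and 4241 ± 759.6 CPM were higher still. Among 14 tested nuclear and stem cell lncRNAs, 11 were lower and none higher (median -1.95), with the largest fall in Firre (-2.77, SE 0.19). Neither ribosome binding nor other heavy particles in the gradient were measured apart, so what carries these transcripts into polysome fractions was not tested.

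The host genes of small nucleolar RNAs, many of which are spliced, exported and degraded during translation, were the lowest list. Of 17 tested, 16 were lower and none higher, at a median of -2.09 (-2.10, -1.87 and -2.15 by gradient). Snhg1 had 79.6, 138 and 85.3 CPM in high and 514, 587 and 614 CPM in low polysomes (log2 ratio -2.53, SE 0.12, limma adjusted p = 8.10e-23), and Gas5 146, 145 and 129 CPM in high and 483, 511 and 560.2 CPM in low polysomes (log2 ratio -1.89, SE 0.13, limma adjusted p = 2.63e-17). Both were highest in monosomes, at 1593 ± 209.5 and 2218 ± 217 CPM. Their median low polysome to monosome ratio was -1.96, as against -0.74 over all lncRNAs. Processed pseudogenes, whose counts can hold reads of their parent genes, were between the coding and noncoding genes, at a median of -0.48. Of 294, 73 were lower (24.8%, beside 15.5% over all genes tested) and 20 higher (6.8%, beside 7.78%).

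The Dgcr8 KO cells, which lack canonical microRNAs, were used to ask which of these ratios differ where those are absent. The high to low polysome ratio differed between KO and WT for 695 of the 12851 genes (5.41%; limma interaction term), 307 of them higher and 388 lower in KO. This split depended on the scaling of the libraries: scaled by library totals alone it was 125 higher and 859 lower, with a median difference over all genes of -0.25 in place of -0.051, and with DESeq2 size factors 348 and 334. The direction differed between classes of coding length. Among the 1646 genes of 201 to 300 codons, 142 had a lower ratio in KO and 4 a higher ratio, and the class median was -0.41 in KO beside 0.064 in WT. Among the 288 genes above 2000 codons, 32 had a higher ratio in KO and none a lower ratio, with medians of 0.13 in KO and -0.30 in WT. With total counts, the calls were 295 lower and 3 higher in the shorter class and 14 higher and 2 lower in the longer. Spearman's rho above 300 codons was -0.145, -0.116 and -0.205 in the 3 WT gradients and 0.154, 0.058 and 0.194 in the 3 KO gradients. The genotypes did not overlap (exact permutation test, two-sided, p = 0.1 with n = 3 per genotype, the smallest p this design allows; 0.125 adjusted over the 10 relations computed), and the same p was found for 8 of the 10, the GC content of the CDS and the mean level among them. Up to 300 codons, rho was 0.457, 0.455 and 0.488 in WT and 0.506, 0.521 and 0.522 in KO. Culture, gradient and collection of the 2 genotypes were not varied apart from genotype here, so these cannot be told apart from it.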

How the data were processed

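Polysome profiling of WT and Dgcr8 KO mouse ESCs gave 18 QuantSeq 3′ libraries, 3 per genotype and fraction. The deposited table holds counts of reads per gene: the authors trimmed reads with cutadapt 1.14, mapped them to mm10 with STAR 2.5.3a, kept reads with a single alignment, and counted them with featureCounts 1.5.3 by strand on GENCODE M14 without rRNA. Genes that share sequence with copies therefore lose reads, and reads stand for 3′ ends without molecular identifiers.

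Genes with 3 CPM or more in 3 or more libraries were kept (12851). The counts were scaled with TMM factors (edgeR 4.0.16) and fitted with limma-voom (limma 3.58.1, R 4.3.3) on all 18 libraries, with 6 group means and the gradient as a block, and two-sided p-values were adjusted by Benjamini-Hochberg across those genes. A call needed an absolute log2 ratio above 1 and an adjusted p below 0.05. A total of 3 counts or fewer was taken as the floor, 0.837 to 1.17 CPM. Ratios per gradient used CPM with a prior count of 2. On simulated counts, 200 of 200 changed genes and 3 of 12651 unchanged genes were called. The changed genes were drawn from well counted genes and given changes beyond the fold threshold, so their recovery was largely set by that choice. They were far fewer than the genes called in the data, and no gradient effect was simulated. The simulation thus checks that the fit runs, and does not measure its power or error rate on these data. Codons, leaders and sequences came from GENCODE M21 on GRCm38, in which 51274 of 51467 gene identifiers were matched.

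Replicate numbers mark fractions of 1 gradient, by the titles and the protocol. Deviations of the high and low polysome libraries of the same number from their group means correlated at 0.226, 0.033 and 0.045 over 7451 genes. Between different numbers, the values ran from -0.154 (high 1 with low 3) to 0.109 (high 2 with low 3). The latter was above the same-number values of gradients 2 and 3, so this check did not show the pairing for those gradients.

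The comparison and the gene lists were chosen with earlier results of these data known. Named genes were the 8 protein-coding genes with the largest ratio in each direction (mean count of 50 or more, fractions apart), the 5 lower ones of 500 codons or more and the 5 higher ones of 200 or fewer, the 4 most abundant lncRNAs, the 2 most abundant and the most changed called members of each list, and Dgcr8 and Ddx6; others were named from the lists after their values were seen. Alternatives were edgeR, DESeq2 1.42.0, other scalings and filters, no block, the 6 WT libraries alone, and each gradient left out. Some items are not reported here.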

Additional observations from a re-analysis of the deposited data

Results flagged for a closer look

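Of the 102 genes picked by the naming rule, 22 had a high to low polysome ratio that differed between Dgcr8 KO and WT cells (limma interaction term, adjusted p under 0.05 and a difference beyond 1 on the log2 scale), and they are flagged for that difference. Over all genes tested the share was 5.41%. Many of the 102 were chosen for their ratio in WT, which enters this difference again, so neither their number nor their direction is evidence on its own. The ratio was lower in KO for Cnbp (-1.791), Khdc3 (-1.699), Hist1h1b (-1.605), Hnrnpab (-1.532), Jun (-1.473), Srsf3 (-1.356), Vbp1 (-1.278), Etfa (-1.267), Hist1h1c (-1.258), Dppa5a (-1.238), Rps4x (-1.231), Atp5g3 (-1.172) and Hnrnpa0 (-1.107). These 13 genes have 118 to 440 codons.

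The ratio was higher in KO for Cdh1 (1.023), Gpx1 (1.027), Tagap1 (1.029), Eef2 (1.129), Pabpc1 (1.191), Pfkp (1.258), Rpl41 (1.268), Gpx2 (1.39) and Cox17 (1.456). Pabpc1 and Eef2, called lower in WT high polysomes, had KO ratios of 0.13 and 0.068. The split between directions over all genes changed with the scaling, as given above. Gpx1, Gpx2, Rpl41 and Cox17 were below 0 in KO, at -1.99, -1.82, -1.53 and -1.54.

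Reads of the ERCC spike-in sequences, which no comparison uses, were counted in each of the 6 WT high and low polysome libraries, 179 in all and 16 to 56 per library, above the 3 counts taken as the floor. They make up at most 0.00215% of a library.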

How the results depend on the processing

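The fit without the replicate block gave 1024 genes higher and 2010 lower in high polysomes, against 1000 and 1993 with it, and changed the call of 1 named gene, Jun (log2 ratio 0.9965). Across the other alternatives with the fold threshold, 758 to 1238 genes were higher and 1627 to 2394 lower, and leaving out each gradient in turn gave 1003 to 1047 and 1793 to 1891. Without the fold threshold the counts were 3335 and 3517. The median ratio of lncRNAs minus that of protein-coding genes was -1.876 with a filter of 10 CPM, -0.2903 over all genes with a count, -1.651 without the replicate block, and -1.694 to -1.566 with each gradient left out. The cause was not tested.

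Signs turned for 4 list medians and 7 named genes, none of them called. With each gradient left out in turn, the median of the TOP messages ran from -0.05575 to 0.296, that of the motors from -0.2429 to 0.07118 and that of the fibroblast markers from -0.7865 to 0.03876. Over the same settings, the ratio of Baz2a ran from -0.02481 to 0.04381, Dab2 from -0.1074 to 0.8837, Klf4 from -0.2517 to 0.06957, Lama1 from -0.3571 to 0.242, Psmd8 from -0.09187 to 0.23, Rps3 from -0.1249 to 0.003358 and Thy1 from -0.8488 to 0.1668. The primitive endoderm median was -0.1119 with the 10 CPM filter, at which no fibroblast marker was left, and the fibroblast median 0.5349 over all genes with a count. Baz2a was also at -0.0199 with DESeq2, -0.01938 with its size factors, -0.04707 with 10 CPM and -0.01994 with 3 CPM in the 6 WT libraries. Of the 102 named genes, 10 lost their call in at least 1 alternative and 2 gained one. At 3 counts or fewer per library a ratio was not measurable, which limits 148 of the 494 lncRNAs.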
